A study of Homo sapiens with 30 samples.

Results

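SPEN was knocked down in naive human embryonic stem cells with either of a pair of siRNA mixes, and the RNA of the cells that received mix 2 (siSPEN2, 3 libraries) was compared with that of the cells that received mix 1 (siSPEN1, 3 libraries). These 6 libraries, chosen by their sample titles, are part of a series of 30 libraries in 10 groups. All cells were H9, an established human embryonic stem cell line, held in the naive, preimplantation-like state in PXGL medium on mouse feeder fibroblasts. Per the study's methods, mix 1 contained a single siRNA and mix 2 a pair of other siRNAs, the cells were transfected with a lipid reagent, and the control cells received a scrambled siRNA (siScr, 3 libraries). These were 3 biological replicates per group. The knockdown was transient. The number of siRNAs in a mix and their sequences cannot be told apart as sources of a difference. The labels name the mixes and the replicate number only.

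SPEN is a very large nuclear RNA-binding protein. It binds the A-repeat of the noncoding RNA XIST and recruits co-repressor complexes with histone deacetylase HDAC3 to silence X-linked genes, and it also works as a co-repressor of RBPJ, the DNA-binding factor of the Notch pathway. An siRNA is loaded into an Argonaute protein, pairs with its target RNA and leads to its cleavage, and it can also lower other RNAs with a short match to its first bases. Reagents of different sequence against the same gene are therefore often used side by side. The comparison asks which pathways and gene families differed between the mixes when SPEN itself was lowered to a similar level.

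Total counts were 31.2 to 48.5 M in siSPEN1, 41.0 to 51.6 M in siSPEN2 and 41.2 to 48.6 M in siScr, and 16448 of 28307 genes were tested. All levels are CPM, counts divided by the library total and scaled with TMM factors, and group values are means with SD over 3 libraries. In a principal component analysis the first component (38.6% of the variance) separated siScr from both mixes and the second (23.5%) separated the mixes from each other. The third (8.3%) set siSPEN1 replicate 1 apart from siSPEN1 replicate 2. Genes with short transcripts tended to be lower and genes with long transcripts higher in siSPEN2. The median log2 fold change was -0.07 among the 3182 genes with the shortest transcripts (53 to 1907 bases) and 0.05 among the 3181 with the longest.

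SPEN (chromosome 1, 15836095 to 15940456, plus strand, hg38) was at 376.4, 281.6 and 332.2 CPM in the siScr libraries. It was at 153.5, 163.1 and 174.6 CPM in the siSPEN1 libraries and at 152.5, 149.2 and 166.2 CPM in the siSPEN2 libraries. Every knockdown library lay below every siScr library, and the libraries of the mixes overlapped. The log2 fold change was -1.01 for siSPEN1 and -1.08 for siSPEN2 against siScr (SE 0.08 each). Between the mixes the log2 fold change was -0.07 (SE 0.076, edgeR adjusted p = 0.52), with a 95% interval from -0.23 to 0.09. The 2-sided exact permutation test on CPM gave p = 0.4, where the smallest p that 3 against 3 libraries allow is 0.1. With same-numbered libraries taken as pairs, SPEN was lower in siSPEN2 by 0.96, 13.9 and 8.36 CPM, in all 3 pairs. The exact sign-flip permutation test gave p = 0.25, the smallest that 3 pairs allow. A difference of up to 0.23 on the log2 scale is thus within the interval. When transcript length and GC content were modelled in each library, a setting chosen after the data were seen, the log2 fold change was -0.17 (edgeR adjusted p = 0.049).

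The genes of proteins that SPEN works with differed little between the mixes. Of 30 partners and co-repressors tested, 6 were higher and 5 lower in siSPEN2 by the adjusted p, beside 18.3% and 16.3% of all tested genes, and 0 were called, a call being an adjusted p below 0.05 with a log2 fold change above 1 or below -1. Leaving out single libraries gave 2 to 5 higher members, with 2 without siSPEN2 replicate 3 and 3 without siSPEN1 replicate 1, siSPEN1 replicate 2 or siSPEN2 replicate 1. TBL1XR1, a subunit of the NCOR complexes, was at 475 ± 11.4 CPM in siSPEN1 and 347 ± 13.4 CPM in siSPEN2 (log2 fold change -0.45, edgeR adjusted p = 3.0e-07). PCGF3, a Polycomb subunit that acts in XIST-mediated silencing, had a log2 fold change of -0.27, and MBD3, a subunit of the NuRD deacetylase complex, of -0.32. The co-repressor NCOR1 was slightly higher, with a log2 fold change of 0.16.

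**Figure D1:**
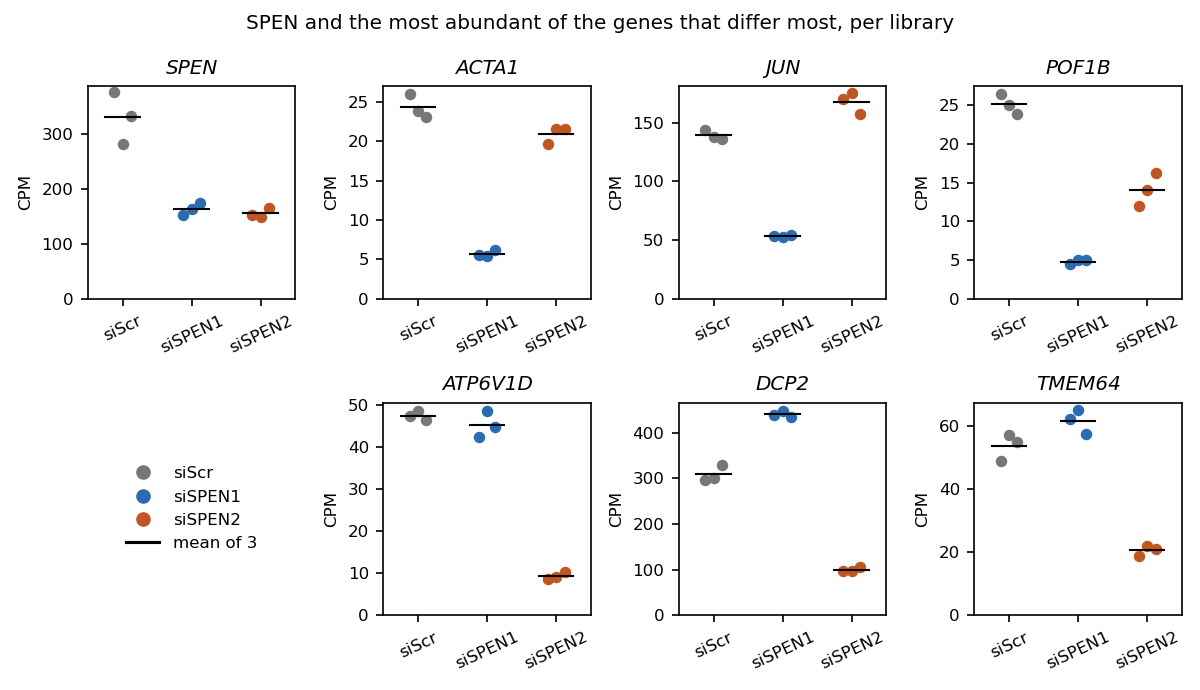
CPM (vertical axes, from 0) of SPEN and of the most abundant genes among those that differed most, in each of the 9 libraries. Points are libraries and lines are means of 3. SPEN overlaps between the mixes, while ACTA1, JUN and POF1B are higher and ATP6V1D, DCP2 and TMEM64 lower in every siSPEN2 library than in every siSPEN1 library. Genes other than SPEN were chosen among those without overlap between the mixes, as at 43.6% of all tested genes.

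Beyond SPEN the mixes differed at many genes. With siSPEN2 against siSPEN1, 412 genes were called (2.50% of those tested), of which 259 were higher (1.57%) and 153 lower (0.930%) in siSPEN2. By the adjusted p alone, 5703 genes passed (34.7%), most with small changes. Their median absolute log2 fold change was 0.33, and 71.6% of them changed by less than 0.5. Abundant genes can pass at smaller changes than scarce ones, so the shares in the lists below also depend on expression level. The median level of all tested genes was 19.1 CPM. How far level accounts for the share of a list was not tested. In 7171 genes (43.6%) the CPM of the mixes did not overlap. For scale, 836 genes (5.08%) were called for siSPEN1 and 697 (4.24%) for siSPEN2 against siScr, comparisons that share the siScr libraries. Many were scarce, since 119 of the higher and 71 of the lower genes had a mean below 1 CPM over the 6 libraries, and 253 genes were called when testing was limited to genes that reached 1 CPM in 3 libraries.

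Set beside siScr, the called genes showed where each mix lay. Of the 259 genes higher in siSPEN2, 152 were below siScr in siSPEN1 and 101 were above siScr in siSPEN2 by the adjusted p. Of the 153 genes lower in siSPEN2, 73 were below siScr in siSPEN2 and 78 were above siScr in siSPEN1. In the other direction, 6 of the 259 were above siScr in siSPEN1 and 29 below it in siSPEN2. Of the 153, 8 were below siScr in siSPEN1 and 7 above it in siSPEN2. These genes were called for their difference between the mixes, so each had to lie away from siScr in either mix or both. The counts describe only in which mix.

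**Figure D2:**
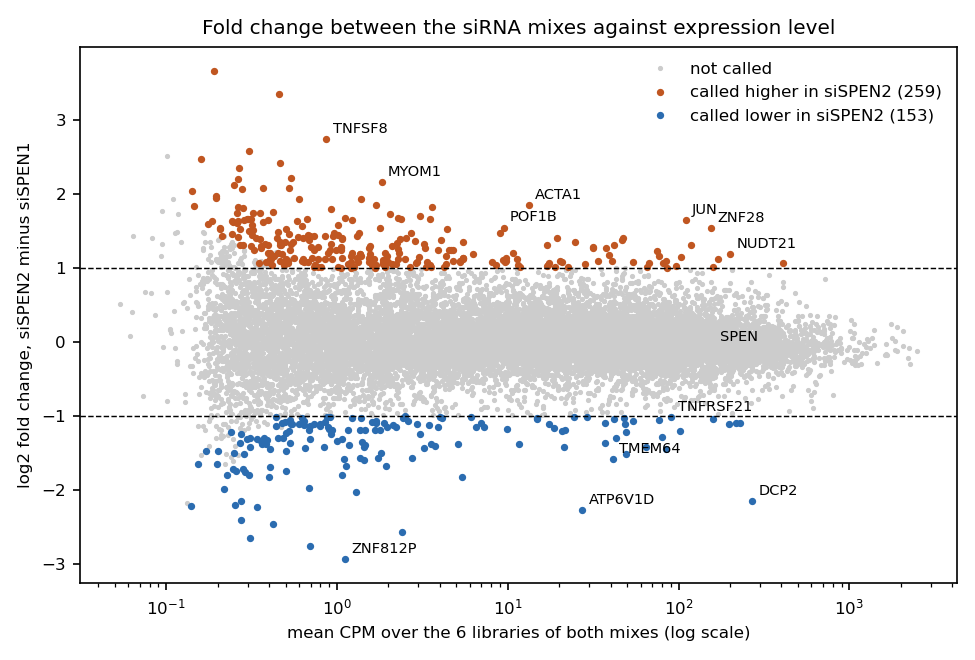
Log2 fold change of siSPEN2 over siSPEN1 (vertical axis) against the mean CPM over the 6 libraries (horizontal axis, log scale) for the 16448 tested genes. Coloured points are the 259 genes called higher and the 153 called lower, dashed lines mark a log2 fold change of 1 and -1, and SPEN lies near 0.

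The 3 most abundant of the 12 genes chosen for the largest negative changes were below siScr in that mix. DCP2, the catalytic subunit of the mRNA decapping complex, was at 439, 449 and 434 CPM in siSPEN1 and at 97, 96.9 and 105 CPM in siSPEN2, with siScr in between at 296, 300.0 and 330.3 CPM. DCP2 was thus 4.42-fold lower (log2 fold change -2.15, SE 0.053, edgeR adjusted p = 1.1e-16). ATP6V1D, a subunit of the V-ATPase proton pump that acidifies lysosomes, was at 42.3, 48.5 and 44.7 CPM in siSPEN1 and 8.62, 9.08 and 10.3 CPM in siSPEN2. The siScr libraries, at 46.4 to 48.6 CPM, overlapped those of siSPEN1. The log2 fold change of ATP6V1D was -2.27 between the mixes (SE 0.072, edgeR adjusted p = 4.7e-15) and -0.07 for siSPEN1 against siScr (edgeR adjusted p = 0.39). TMEM64, a membrane protein, was at 62.3, 65.2 and 57.5 CPM in siSPEN1, 18.7, 22.1 and 21 CPM in siSPEN2 and 48.8, 57.2 and 55.1 CPM in siScr. Between the mixes it had a log2 fold change of -1.58 with an SE of 0.072 (edgeR adjusted p = 1.2e-12).

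Further abundant genes were lowered by mix 2 and were picked out after their values were seen. MIGA1, a mitochondrial outer membrane protein, was at 72.7 CPM in siSPEN1 and 25.5 CPM in siSPEN2, beside 83.4 CPM in siScr. In the same order LYSMD3 was at 93.4, 35.1 and 96.5 CPM, and LIN7C, a scaffold protein of cell junctions, at 312, 147 and 307 CPM. The sialomucin CD164 was at 296 and 138 CPM, with log2 fold changes of -0.32 for siSPEN1 and -1.41 for siSPEN2 against siScr. Between the mixes the log2 fold changes of these genes ran from -1.51 (MIGA1) to -1.09 (CD164 and LIN7C). For MIGA1 the change of siSPEN1 against siScr, -0.20, also passed.

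Other genes among the 12 were above siScr in siSPEN1. SLC35G3, a solute carrier, was at 3.81, 4.7 and 3.89 CPM in siSPEN1, 0.855, 0.646 and 0.586 CPM in siSPEN2 and 0.357 to 0.449 CPM in siScr. Between the mixes the log2 fold change was -2.57, with an SE of 0.21 and an edgeR adjusted p of 6.1e-09. SLC35G5 (-1.59) is a near-identical copy, so the reads of both are uncertain. The pseudogene ZNF812P had the largest negative value among genes above 1 CPM, -2.93, at 1.99 ± 0.679 CPM in siSPEN1, 0.25 ± 0.117 CPM in siSPEN2 and 0.155 ± 0.0944 CPM in siScr. CD48, a receptor ligand of immune cells, stood at 1.66 CPM in siSPEN1, 0.47 CPM in siSPEN2 and 0.328 CPM in siScr.

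ETV1, a transcription factor downstream of ERK signalling, was raised in siSPEN1 and lowered in siSPEN2, with log2 fold changes of 1.04 and -0.98 against siScr and -2.02 between the mixes. The other genes among the 12 lowest were HLA-DPB1 (-1.67), LOC101926935 (-1.67), LINC00960 (-1.58) and MIR10396B (-1.82). The CPM of MIR10396B spread from 4.92 to 12.8 over the siSPEN1 libraries, and it is one of several near-identical copies whose reads are uncertain.

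The genes highest in siSPEN2 were mostly genes that mix 1 had lowered. JUN, the AP-1 transcription factor, was at 53.2, 52.6 and 54.5 CPM in siSPEN1 and at 170.2, 175 and 157 CPM in siSPEN2, beside 144, 138 and 136 CPM in siScr. It was 3.13-fold higher with mix 2 (log2 fold change 1.65, SE 0.051, edgeR adjusted p = 4.2e-15). ACTA1, the skeletal muscle alpha-actin, was at 5.53, 5.46 and 6.22 CPM in siSPEN1, 19.6, 21.6 and 21.5 CPM in siSPEN2 and 26, 23.9 and 23.1 CPM in siScr. The log2 fold change of ACTA1 was 1.85 between the mixes (SE 0.085, edgeR adjusted p = 1.2e-12), and -2.07 for siSPEN1 and -0.22 for siSPEN2 against siScr. POF1B, an X-linked actin-binding protein of epithelial junctions, was at 4.45, 4.96 and 4.98 CPM in siSPEN1, 12, 14 and 16.2 CPM in siSPEN2 and 26.4, 25.1 and 23.9 CPM in siScr. In POF1B both mixes lay below siScr, mix 1 further (log2 fold changes -2.39 and -0.84).

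The sarcomere protein MYOM1 had the largest positive value among genes above 1 CPM, 2.16 with an SE of 0.20 (log2 fold change, edgeR adjusted p = 3.5e-08). It was at 0.664 ± 0.101 CPM in siSPEN1, 2.99 ± 0.189 CPM in siSPEN2 and 2.65 ± 0.299 CPM in siScr. In the same order of groups ELOVL2, an elongase of polyunsaturated fatty acids, was at 1.57, 5.6 and 4.07 CPM, and PIPOX, a peroxisomal oxidase, at 1.06, 3.47 and 3.23 CPM. CYBRD1, a ferric reductase, reached 0.58, 1.88 and 2.56 CPM, FAM114A1 0.498, 1.52 and 2.5 CPM, and the cytidine deaminase APOBEC3H 0.52, 1.71 and 1.44 CPM.

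Raised by mix 2 instead was CHRNA3, a nicotinic acetylcholine receptor subunit, with 1.41 CPM in siSPEN1, 4.69 CPM in siSPEN2 and 1.35 CPM in siScr (log2 fold change 1.71 between the mixes). SIRPA, a receptor for CD47, and TMEM178B moved both ways. SIRPA had log2 fold changes of -0.99 for siSPEN1 and 0.95 for siSPEN2 against siScr, and TMEM178B of -0.58 and 1.08. JUN and ELOVL2, lowered by mix 1, were also above siScr in siSPEN2, by 0.26 and 0.46 on the log2 scale (edgeR adjusted p = 1.8e-04 and 0.0069). Abundant genes lowered by mix 1 were also found after the values were seen. NUDT21, a subunit of the cleavage factor that sets poly(A) sites, was at 122 ± 5.38 CPM in siSPEN1 and 279 ± 7.02 CPM in siSPEN2, beside 279 ± 10.1 CPM in siScr. TMF1, a Golgi protein, was at 77, 25.9 and 67.3 CPM in siScr, siSPEN1 and siSPEN2, PGGT1B, a subunit of a protein prenyltransferase, at 53.7, 21.9 and 53 CPM, and TMEM123 at 61.8, 24.1 and 59.9 CPM.

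**Figure D3:**
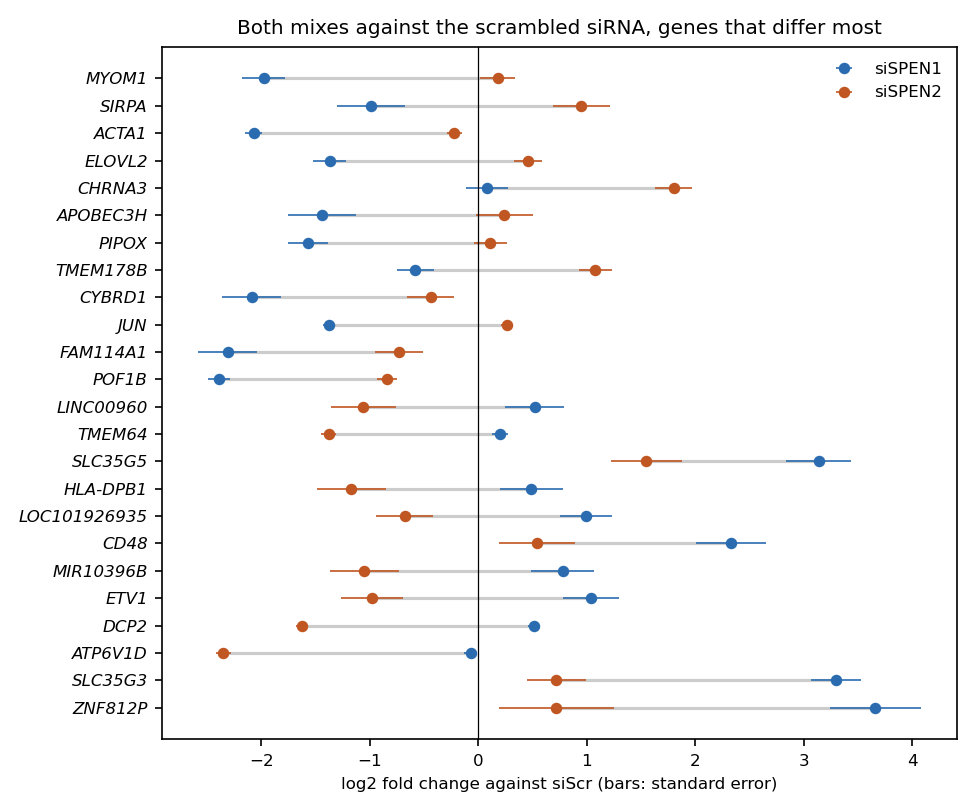
Log2 fold change against siScr (horizontal axis, bars are standard errors) of siSPEN1 and siSPEN2 for the 12 genes most higher and the 12 most lower in siSPEN2. JUN, ACTA1 and MYOM1 were low in siSPEN1 and ATP6V1D, DCP2 and TMEM64 low in siSPEN2, and SLC35G3 and ZNF812P were high in siSPEN1.

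Genes of the actin cytoskeleton were higher in siSPEN2. Serum response factor (SRF), together with its actin-sensing coactivators, binds the CArG box and drives actin, calponin and other contractile genes. Of 34 tested SRF targets and adhesion genes, 22 passed the adjusted p as higher and 2 as lower, beside 18.3% and 16.3% of all tested genes. The median log2 fold change was 0.25, beside 0.0 for all tested genes, and 4 were called (11.8%, beside 2.50% of all tested genes), all higher. Leaving out single libraries gave 20 to 21 higher members.

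CArG boxes were searched on both strands in the 250 bases before the start of each gene in a RefSeq table (GRCh38.p14). They were found in 8 of the 30 list members that the table holds (26.7%), beside 1.14% of all 27305 promoters and 1.02% of the tested genes. The list was drawn up from known SRF targets, so this share describes the list. Of the 8, the genes ACTA1, ACTG2, CNN2, TPM4, FLNA and SRF were higher in siSPEN2, ACTG1 was lower (-0.21), and FHL2 had a log2 fold change of -0.15. The matches are printed in capitals for ACTA1 (chr1:229434095-229434344, minus strand), ACTG2 (chr2:73892758-73893007, plus strand) and SRF itself (chr6:43171019-43171268, plus strand), as examples of the element. Most of the higher members in the table had no match in this window.
ACTA1: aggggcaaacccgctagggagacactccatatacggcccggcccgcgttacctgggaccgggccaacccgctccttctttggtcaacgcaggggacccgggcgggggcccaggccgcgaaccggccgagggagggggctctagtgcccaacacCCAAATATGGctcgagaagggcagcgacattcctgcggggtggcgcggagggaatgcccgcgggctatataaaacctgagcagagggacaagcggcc
ACTG2: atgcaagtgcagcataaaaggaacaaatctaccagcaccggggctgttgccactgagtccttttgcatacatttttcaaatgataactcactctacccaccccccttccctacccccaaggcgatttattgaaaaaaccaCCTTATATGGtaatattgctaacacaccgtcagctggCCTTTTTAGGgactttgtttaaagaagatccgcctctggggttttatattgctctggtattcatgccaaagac
SRF: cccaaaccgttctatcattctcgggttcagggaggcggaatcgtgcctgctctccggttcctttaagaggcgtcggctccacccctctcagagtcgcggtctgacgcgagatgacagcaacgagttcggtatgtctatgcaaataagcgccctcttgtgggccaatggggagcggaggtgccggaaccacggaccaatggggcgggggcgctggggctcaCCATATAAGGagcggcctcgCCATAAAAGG

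The called members were contractile genes. CNN1, the smooth muscle calponin, was at 2.2, 2.17 and 2.44 CPM in siSPEN1 and 6.06, 6.93 and 6.76 CPM in siSPEN2 (log2 fold change 1.53, edgeR adjusted p = 2.9e-09), with siScr at 7.97 to 8.15 CPM. TAGLN, another actin-binding protein of smooth muscle, was at 2.83 ± 0.42 CPM and 6.75 ± 0.491 CPM (1.24). MYL9, a myosin light chain, was at 11.1 ± 2.35 and 23.1 ± 3.44 CPM, with a log2 fold change of 1.05 that was between 0.94 and 0.98 without siSPEN1 replicate 1, siSPEN1 replicate 2 or siSPEN2 replicate 2. ACTA1 was the fourth. Smaller differences were measured at ACTG2 (0.86), caldesmon CALD1 (0.59), ACTN1 (0.55), TPM4 (0.49) and SRF (0.34, from 171 to 216 CPM). The most abundant actins went the other way or did not pass. ACTG1, at 2352 CPM in siSPEN1, had a log2 fold change of -0.21, and ACTB, at 2598 CPM, of -0.12 without passing. LIMA1, a LIM protein of actin bundles, was lower at -0.64.

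Immediate early genes, which cells switch on within minutes of a growth or stress signal, had the same direction. By the adjusted p 17 of 27 were higher and 2 lower (63.0% and 7.41%, beside 18.3% and 16.3% of all tested genes). The median log2 fold change was 0.36, and 3 were called higher (11.1%, beside 2.50%). SRF belongs to both lists. JUN was the largest. The mRNA-destabilizing protein ZFP36 was at 2.26 ± 0.76 CPM in siSPEN1 and 4.77 ± 0.831 CPM in siSPEN2, a log2 fold change of 1.04 that was between 0.87 and 0.98 without siSPEN1 replicate 1 or 2 or siSPEN2 replicate 2 or 3. The call of EGR2 (1.31, under 0.4 CPM in both mixes) was lost when any library except siSPEN1 replicate 1 was left out (adjusted p of 0.052 to 0.21), with the replicate block (adjusted p = 0.066) and in DESeq2 (adjusted p = 0.09). KLF2, a zinc finger factor, was just short of a call, at 14.9 ± 1.03 CPM in siSPEN1 and 29.2 ± 1.53 CPM in siSPEN2 (log2 fold change 0.97), with siScr at 49.4 to 56.3 CPM. Lesser rises were measured at DUSP1 (0.68), FOS (0.47), MYC (0.44) and EGR1 (0.35). JUNB (-0.23) and KLF4 (-0.29), a factor that naive cells also use, were lower.

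**Figure D4:**
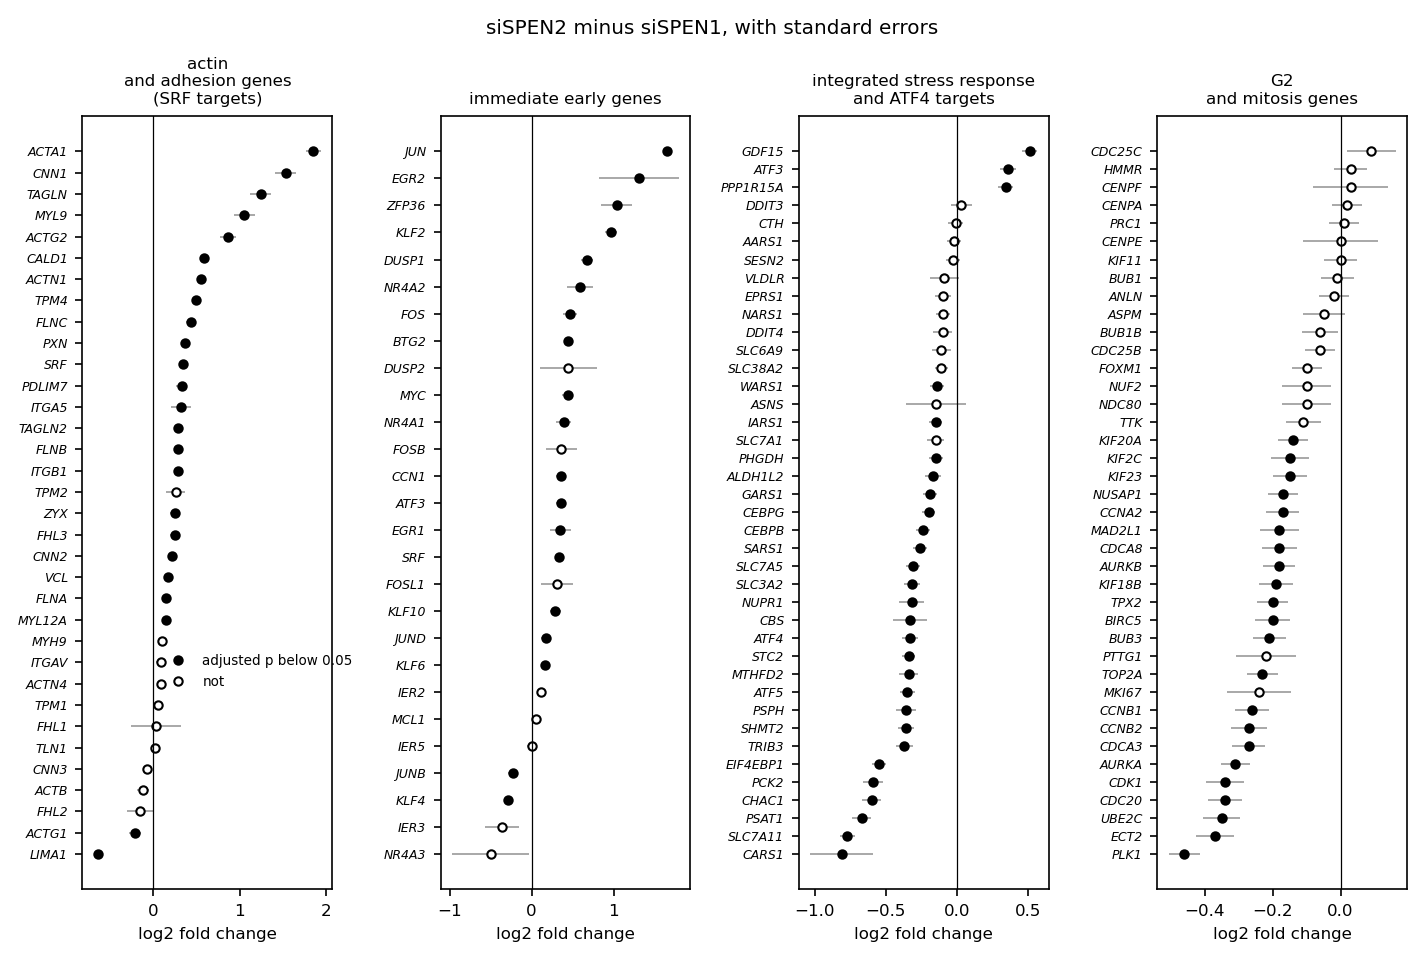
Log2 fold change of siSPEN2 over siSPEN1 (horizontal axes, bars are standard errors) for every tested member of 4 gene lists. Filled points passed the adjusted p. Most SRF targets and immediate early genes lie right of 0, and most ATF4 targets and G2 and mitosis genes left of it.

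Genes of cell adhesion and the extracellular matrix are read against the 18.3% higher, 16.3% lower and 2.50% called among all tested genes. Of 32 laminins and integrins, 9 were higher (28.1%) and 1 lower (3.12%), and 4 were called (12.5%), all higher. These were ITGA3 (1.08), ITGB4 (1.14) and LAMA3 (1.27), which belong to the anchorage of epithelia to laminin, and the leukocyte integrin ITGB2 (1.09). All 4 were below 3 CPM in both mixes, and only 2 members were called without siSPEN1 replicate 1 and without siSPEN1 replicate 3. LAMA3 lost its call without siSPEN1 replicate 1 or 3 or siSPEN2 replicate 2 or 3 (adjusted p of 0.075 to 0.15). ITGB2 was at 0.88 without siSPEN1 replicate 1 and ITGA3 at 0.93 without siSPEN1 replicate 3. Without siSPEN2 replicate 1, 4 members were lower by the adjusted p. Of 28 collagens, 11 were higher (39.3%) and 2 lower (7.14%), with a median log2 fold change of 0.23. The called member COL8A2 (1.83) was at 0.114 CPM in siSPEN1 and was not called without siSPEN1 replicate 1 (adjusted p = 0.051). More abundant collagens that passed were COL27A1 (0.63, from 42.3 to 65.5 CPM) and COL5A1 (0.59, from 19.2 to 28.9 CPM).

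Of 22 cadherins and regulators of the epithelial to mesenchymal transition, 9 were higher (40.9%) and 1 lower (4.55%), beside 18.3% and 16.3% of all tested genes. RAB25, an epithelial trafficking GTPase, was at 3.43 ± 0.363 CPM in siSPEN1 and 7.54 ± 0.357 CPM in siSPEN2 (1.14). It was the only call (4.55% of the list, beside 2.50% of all tested genes). The epithelial regulators GRHL2 (0.72), OVOL1 (0.63) and GRHL1 (0.44) were higher. The mesenchymal cadherin CDH11 (0.66) was higher too and OVOL2, another epithelial regulator, was lower (-0.25), while E-cadherin (CDH1) was at 629 and 625 CPM. Among 13 claudins of tight junctions, 5 were higher (38.5%) and 1 lower (7.69%). Only CLDN3 was called (1.43, from 0.374 to 1.02 CPM), or 7.69% of the list, beside 2.50% of all tested genes.

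TNF ligands and receptors gave 8 higher (42.1%) and 2 lower (10.5%) of 19, beside 18.3% and 16.3% of all tested genes, with 3 called higher and 1 lower (21.1%, beside 2.50%). TNFRSF21, a death receptor, was the abundant one, at 131, 118 and 114 CPM in siSPEN1 and 61.1, 60.1 and 59.3 CPM in siSPEN2, and siScr (58.5 to 65.2 CPM) lay with siSPEN2. The difference of -1.01 on the log2 scale (SE 0.056) was -0.95 without siSPEN1 replicate 1 and -0.99 with library totals alone, and it was also just short of a call without siSPEN2 replicate 3. The ligand TNFSF8 was at 0.0846, 0.0986 and 0.427 CPM in siSPEN1 and 1.66, 1.67 and 1.26 CPM in siSPEN2, or 2.74 higher on the log2 scale with an SE of 0.43 (edgeR adjusted p = 4.1e-05). TNFSF12 (1.21) and TNFRSF1B (1.06) were called at low levels. The libraries of TNFRSF1B overlapped, its adjusted p was 0.33 in DESeq2 and 0.072 with the replicate block, and the call was lost without siSPEN1 replicate 1 or 3 or siSPEN2 replicate 1 or 2 (adjusted p of 0.092 to 0.3). TNFSF12 was not called without siSPEN1 replicate 2 (adjusted p = 0.075).

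Pluripotency genes differed by small amounts. Of 10 core genes, 5 were lower (50%) and 3 higher (30%) in siSPEN2, beside 16.3% and 18.3% of all tested genes, with 0 called. The median level of the list was 466.3 CPM, beside 19.1 CPM for all tested genes. NANOG was at 663 ± 71.3 CPM in siSPEN1 and 572 ± 30.9 CPM in siSPEN2, and POU5F1 at 55 ± 12 and 46.1 ± 2.29 CPM, each with overlapping libraries. SOX2 had a log2 fold change of -0.13 (edgeR adjusted p = 0.045). L1TD1, an RNA-binding protein, was higher (0.49), as were TDGF1 and LIN28A. The 5 lower genes became 2 without siSPEN1 replicate 2, without siSPEN2 replicate 2 and without siSPEN2 replicate 3, and 3 without siSPEN2 replicate 1 and with library totals alone.

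Markers of the naive state were expressed, and 9 of 20 were lower (45%, beside 16.3% of all tested genes) and 0 higher in siSPEN2, with a median of -0.16 and 0 called. These markers had a median level of 315.7 CPM, beside 19.1 CPM for all tested genes, and abundant genes can pass at smaller changes. DPPA5 was at 499, 571 and 405 CPM in siSPEN1 and at 396, 372 and 356 CPM in siSPEN2, with siScr at 388 to 399 CPM. The germline methylation cofactor DNMT3L (-0.40), KHDC3L (-0.33), SUSD2 (-0.31), CPT1A (-0.31) and KLF17 (-0.22) were lower by similar amounts, while TFCP2L1 (0.12) did not pass. The summed level of the naive list was 8533 to 9478 CPM in siSPEN1, 8234 to 8649 CPM in siSPEN2 and 8090.5 to 8236 CPM in siScr. Of 13 primed markers tested, 6 were higher (46.2%) and 2 lower (15.4%), beside 18.3% and 16.3% of all tested genes, and 0 were called. Their summed level was 622 to 655 CPM in siSPEN1, 763 to 791 CPM in siSPEN2 and 733 to 750.3 CPM in siScr. LEFTY1, a Nodal antagonist, was at 98.8, 86.8 and 80.3 CPM in siSPEN1 and 178, 169.7 and 158 CPM in siSPEN2, beside 54.1 to 57.6 CPM in siScr. Its log2 fold change was 0.93, and 1.01 without siSPEN1 replicate 1. SALL2 (0.63) was also higher, and NEFL, a neurofilament gene, was lower (-0.95). In bulk RNA, fewer cells of a type and less RNA per cell cannot be told apart.

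Syncytiotrophoblast genes were variable between replicates. Of 18 tested, 7 were higher in siSPEN2, a share above the 18.3% of all tested genes, and 1 was lower (5.56%, beside 16.3%). The 3 called (16.7%, beside 2.50%) were CGB3, CGB5 and CGB8, copies of the beta subunit of chorionic gonadotropin that share reads. CGB3 was at 0.423, 2.17 and 0.936 CPM in siSPEN1 and 3.69, 5.75 and 1.34 CPM in siSPEN2, so the libraries overlapped. In DESeq2 and without siSPEN1 replicate 1, siSPEN1 replicate 3 or siSPEN2 replicate 2, 0 members of the list were called. Without siSPEN1 replicate 2 there were 6. The 7 higher members became 3 without siSPEN1 replicate 3 and without siSPEN2 replicate 2, and 4 without siSPEN1 replicate 1 and in DESeq2. The alpha subunit CGA ranged from 3.17 to 8.74 CPM in siSPEN1 and from 5.36 to 14.4 CPM in siSPEN2 (0.93, edgeR adjusted p = 0.057). It was called without siSPEN1 replicate 2 (1.49) and without siSPEN2 replicate 3 (1.22). The summed list was at 198 to 218 CPM and 235 to 259.8 CPM, and at 201 to 223 CPM in siScr.

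Trophectoderm markers were mixed, with 3 higher (14.3%) and 6 lower (28.6%) of 21, beside 18.3% and 16.3% of all tested genes. Their summed levels were 894 to 929 CPM in siSPEN1, 908 to 925 CPM in siSPEN2 and 1053 to 1104 CPM in siScr. The transporter ABCG2 (-0.85) and CDX2 (-0.55) were lower and HAND1 (0.73) higher, while GATA3 was at 4.07 and 4.63 CPM (edgeR adjusted p = 0.32). The 6 lower markers became 2 without siSPEN1 replicate 3 and 3 without siSPEN1 replicate 2, without siSPEN2 replicate 1 and with library totals alone. Amnion markers summed to 113 to 117 CPM in siSPEN1, 129.9 to 139 CPM in siSPEN2 and 139 to 146 CPM in siScr.

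For the germ layers, the summed level and the called genes of the neuroectoderm list went in opposite directions. The sum was 590.4 to 602 CPM in siSPEN1, 853 to 873 CPM in siSPEN2 and 694 to 712 CPM in siScr, and the gap between the mixes lay in the intermediate filament NES and the tubulin TUBB3 (log2 fold change 0.33). NES was at 277, 296 and 307 CPM in siSPEN1, 502, 534 and 521 CPM in siSPEN2 and 447 to 464 CPM in siScr (log2 fold change 0.82, edgeR adjusted p = 4.5e-11). Of 15 tested, 2 were higher (13.3%) and 5 lower (33.3%), beside 18.3% and 16.3% of all tested genes. The 3 called members (20%, beside 2.50%) were lower, and all stood below 1.3 CPM: NCAM1 (-1.34), SOX1 (-1.14) and LHX2 (-1.01). Without siSPEN2 replicate 1, 0 were called, without siSPEN1 replicate 1 or siSPEN2 replicate 2 only 1, and NCAM1 had an adjusted p of 0.05 with the replicate block. SOX1 was also not called without siSPEN1 replicate 3 (adjusted p = 0.052), and LHX2 was at -0.99 with library totals alone and with length and GC content modelled and not called without siSPEN1 replicate 1 or 2 or siSPEN2 replicate 1 or 2. Of the 12 mesoderm and primitive streak markers, 4 were higher (33.3%) and 1 lower (8.33%), and 2 were called (16.7%, beside 2.50%). EOMES was called at 0.75 and 1.56 CPM (1.06), TBXT at 0.115 and 0.374 CPM (1.64), and neither was called without siSPEN2 replicate 2. TBXT was also not called without siSPEN1 replicate 1 (adjusted p = 0.082) or siSPEN1 replicate 2 (adjusted p = 0.07).

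Hypoblast and endoderm markers summed to 864 to 920.1 CPM in siSPEN1, 946 to 979 CPM in siSPEN2 and 932 to 944 CPM in siScr. In the same order 8-cell genes summed to 839 to 935, 757 to 804 and 772 to 816 CPM, and germline genes to 843 to 859, 830.4 to 856 and 791 to 809 CPM. Fibroblast markers were listed because feeder cells could add reads. They summed to 763 to 823 CPM in siSPEN1, 824 to 852 CPM in siSPEN2 and 791 to 796 CPM in siScr. Of 16 tested, 3 were higher (18.8%) and 1 lower (6.25%), beside 18.3% and 16.3% of all tested genes. Of the 16, 2 were called (12.5%, beside 2.50%). The defining collagen COL1A1 was at 2.96 and 4.13 CPM and vimentin under 1 CPM in both mixes. TAGLN was called higher and the receptor PDGFRA lower (4.02 to 1.86 CPM, log2 fold change -1.10). The part of feeder reads in these values was not tested.

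Of 38 tested interferon-stimulated and sensing genes, 12 were higher (31.6%) and 5 lower (13.2%), beside 18.3% and 16.3% of all tested genes, and 5 were called (13.2%, beside 2.50%), all higher. TRIM22, an antiviral ubiquitin ligase, was at 10.3, 9.73 and 9.28 CPM in siSPEN1, 24.1, 25.5 and 22.9 CPM in siSPEN2 and 20.3 ± 0.459 CPM in siScr (log2 fold change 1.31, edgeR adjusted p = 2.4e-11). DTX3L and PARP9, partners that share a promoter region, had log2 fold changes of 1.04 and 1.06, again with siScr near siSPEN2 (16.5 and 3.87 CPM against 15.4 and 2.86 CPM). The RNA sensor DDX58 (1.41) and the adaptor STING1 (1.24) were at about 1 CPM or less. Without siSPEN1 replicate 2 only 2 members were called (PARP9, DTX3L and STING1 were between 0.90 and 0.98), and 3 when 1 CPM was required in 3 libraries. PARP9 was at 0.92 without siSPEN2 replicate 3. Among the other members, MX1 (-0.15) and OAS1 (-0.64) were lower, ISG15 was higher (0.31), and IFITM3 (0.01) did not pass.

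The HLA-D symbols belong to class II genes, which present peptides on immune cells. Of 18 in the files, 5 were expressed enough to be tested, and 4 of these were called lower in siSPEN2, beside 0.930% of all tested genes. HLA-DPB1 came from the naming rule, and the family was picked out after its values were seen, so the count has no weight of its own. HLA-DRB1 was at 29.7, 29 and 27.8 CPM in siSPEN1, 12.6, 13.4 and 11.6 CPM in siSPEN2 and 11.5 to 13.2 CPM in siScr, so that siSPEN1 stood apart (log2 fold change -1.20, SE 0.075, edgeR adjusted p = 1.1e-10). HLA-DQB1 stood at 9.94 and 4.51 CPM (-1.14) and HLA-DRB5 at 2.67 and 0.937 CPM, 2.84-fold lower. The pseudogene HLA-DPB2 was lower without a call (-0.58). These genes have near-identical copies, so the division of reads among them is uncertain.

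Most targets of the integrated stress response tested were lower in siSPEN2. In that response the factor ATF4 raises amino acid transporters, serine synthesis and tRNA charging when translation initiation is limited. Of 40 tested members, 25 were lower (62.5%) and 3 higher (7.5%), beside 16.3% and 18.3% of all tested genes, with a median log2 fold change of -0.19, 0 calls and 19 to 25 lower members when single libraries were left out. Their median level was 103.9 CPM, beside 19.1 CPM for all tested genes. The cystine transporter SLC7A11 was at 357, 378 and 369.5 CPM in siSPEN1, 212, 208 and 226 CPM in siSPEN2 and 366 to 409.8 CPM in siScr (-0.77, edgeR adjusted p = 2.5e-10). PSAT1, of serine synthesis, was at 278, 300.5 and 236 CPM in siSPEN1, 166, 175 and 172 CPM in siSPEN2 and 181 to 198 CPM in siScr (-0.67, edgeR adjusted p = 6.6e-08). For SLC7A11 siSPEN2 was thus the group apart from siScr, and for PSAT1 siSPEN1. EIF4EBP1 (-0.55), CHAC1 (-0.60), PCK2 (-0.59), TRIB3 (-0.37) and ATF4 itself (-0.33) were lower, and GDF15 (0.51), ATF3 (0.36) and PPP1R15A (0.34) were higher.

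Lists for amino acid supply and tRNA charging share members with this one. In serine, one-carbon and amino acid transport genes, 12 of 29 were lower (41.4%) and 3 higher (10.3%), beside 16.3% and 18.3% of all tested genes, with the glutamine transporter SLC38A1 at -0.65 and the cationic amino acid transporter SLC7A2 higher at 0.71. Of 19 aminoacyl-tRNA synthetases, 9 were lower (47.4%) and 0 higher (median -0.12), among them YARS1 (-0.27), SARS1 (-0.26) and MARS1 (-0.30), and 5 were lower without siSPEN2 replicate 2. The synthetases had a median level of 189.8 CPM, beside 19.1 CPM for all tested genes. Of 11 metallothionein and zinc genes, a list of its own, 6 were lower (54.5%) and 0 higher, led by MT1H (-0.37), MT1E (-0.23) and the zinc importer SLC39A10 (-0.16). The metallothioneins have near-identical copies, and 2 were lower without siSPEN1 replicate 2 and 3 without siSPEN2 replicate 1.

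Of 40 genes of G2 and mitosis, 22 were lower (55%) and 0 higher in siSPEN2, beside 16.3% and 18.3% of all tested genes, with a median of -0.17 and 0 calls. Their median level was 114.5 CPM, beside 19.1 CPM for all tested genes. The mitotic kinase PLK1 was at 229.7, 232 and 239 CPM in siSPEN1 and 173, 166 and 172 CPM in siSPEN2, with siScr at 173 to 187 CPM (-0.46, edgeR adjusted p = 9.8e-08). The kinase AURKA (-0.31) and the anaphase activator CDC20 (-0.34) were lower too. Of 59 replication-dependent histone genes, 39 were lower (66.1%) and 0 higher, with a median of -0.27. Examples are H2AC4 (-0.45), H3C10 (-0.39), H2BC13 (-0.48) and the linker histone H1-3, which was at 658, 742 and 578 CPM in siSPEN1 and 501, 489 and 483 CPM in siSPEN2. Histone mRNAs are short and have close copies. With length and GC content modelled, 34 were lower and the median was -0.17.

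Cytosolic ribosomal protein genes, also short, gave 37 lower (45.1%, beside 16.3% of all tested genes) and 0 higher of 82, with a median of -0.16, led by RPL7L1 (-0.39), RPL27 (-0.31) and RPL15 (-0.26). This count depended on the libraries: 9 were lower without siSPEN1 replicate 2 and without siSPEN2 replicate 3, 21 without siSPEN2 replicate 2, and 20 with length and GC content modelled (median -0.10). Of 34 splicing factors, with a median level of 230.7 CPM beside 19.1 CPM for all tested genes, 13 were lower (38.2%) and 1 higher (2.94%). HNRNPR had a log2 fold change of -0.24 and PTBP2 of -0.30, and RBFOX2 was the higher one (0.43). Without siSPEN1 replicate 2, 6 were lower, and without siSPEN2 replicate 3, 8.

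Zinc finger genes, many of which encode KRAB repressors of transposable elements, were shifted upward in siSPEN2. Of 506 tested, 196 were higher (38.7%) and 60 lower (11.9%), beside 18.3% and 16.3% of all tested genes, with a median log2 fold change of 0.11, and 12 were called higher and 1, ZNF812P, lower. The called share of 2.57% was close to the 2.50% of all tested genes. By chromosome, 118 of 253 were higher on chromosome 19 and 78 of 253 on the others. The interval on chromosome 19 from 52153864 to 53496255, bounded by the outermost called members of a cluster and thus chosen after their values were seen, held 31 tested zinc finger genes, of which 23 were higher and 1 lower, 7 were called and the median was 0.56. The other 6 genes tested in that interval had a median of 0.22, with 1 higher and 0 called.

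ZNF28 was at 77.4, 78.1 and 83.2 CPM in siSPEN1, 223, 234 and 239 CPM in siSPEN2 and 134 to 136 CPM in siScr, so that the mixes lay on either side of siScr (log2 fold change 1.54, SE 0.048, edgeR adjusted p = 4.2e-15). ZNF468 was at 67.9 ± 3.15 CPM in siSPEN1 and 169 ± 3.56 CPM in siSPEN2 (1.32), with siScr near siSPEN2 at 162 ± 2.52 CPM. ZNF813 (1.41) and ZNF836 (1.28) lie in the same cluster. Outside it, the meiotic gene ZNF541 had a log2 fold change of 1.48. These genes arose by duplication and share sequence, so some reads may be split among them.

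Of 272 LINC noncoding RNA genes, 13 were higher (4.78%) and 35 lower (12.9%), beside 18.3% and 16.3% of all tested genes, with 2 called higher and 7 lower (3.31%, beside 2.50%), among them LINC00839 (-1.57, from 2.06 to 0.686 CPM), LINC02644 (-2.21), LINC00479 (-1.80), LINC02593 (-1.42) and LINC00622 (1.62). The median level of the LINC genes was 0.9 CPM, beside 19.1 CPM for all tested genes, and scarce genes need larger changes to pass. The libraries of LINC00622 overlapped, and its call was lost without siSPEN1 replicate 2 or 3 or siSPEN2 replicate 1 or 2 (adjusted p of 0.052 to 0.11). The call of LINC02644 was lost without siSPEN1 replicate 3 or siSPEN2 replicate 3, and that of LINC00479 without siSPEN1 replicate 1 or siSPEN2 replicate 2 (adjusted p of 0.089 to 0.12).

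Of 397 antisense RNA genes, 14 were higher (3.53%) and 36 lower (9.07%), both below the 18.3% and 16.3% of all tested genes. The median level of these genes was 1.0 CPM, beside 19.1 CPM for all tested genes, and scarce genes need larger changes to pass. The low shares are therefore not read as a trait of the family. With 5 called in each direction, the called share of 2.52% was close to the 2.50% of all tested genes. BHLHE40-AS1 (1.09) and CD27-AS1 (1.31) were higher, and LRP4-AS1 (-1.42), C1RL-AS1 (-1.36), APOBEC3B-AS1 (-1.29) and HOXD-AS2 (-1.09) lower. The calls of HOXD-AS2 and LRP4-AS1 were lost without siSPEN1 replicate 2, siSPEN2 replicate 2 or siSPEN2 replicate 3 (adjusted p of 0.056 to 0.12), and that of C1RL-AS1 without siSPEN1 replicate 1, siSPEN1 replicate 2 or siSPEN2 replicate 1 (adjusted p of 0.056 to 0.083). APOBEC3B-AS1 lost its call without siSPEN1 replicate 3 or siSPEN2 replicate 3, CD27-AS1 without siSPEN1 replicate 3 or siSPEN2 replicate 2 (adjusted p of 0.052 to 0.076), and BHLHE40-AS1 was at 0.93 without siSPEN2 replicate 3. When 1 CPM was required in 3 libraries, 3 genes of each family were called. Without siSPEN2 replicate 2 and siSPEN2 replicate 3 in turn, 5 and 4 antisense genes were called. The higher LINC and antisense genes were both 8 without siSPEN1 replicate 2 and both 7 without siSPEN2 replicate 2, and 9 antisense genes were higher without siSPEN2 replicate 1.

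Solute carriers are the largest transporter family. The list tested here did not hold SLC35G3 (-2.57) and SLC35G5 (-1.59), which were both called lower. Of its 238 members, 52 were higher (21.8%) and 56 lower (23.5%), beside 18.3% and 16.3% of all tested genes. Within the list 3 were called in each direction (2.52%, beside 2.50%). SLC16A12 (1.25), SLC44A5 (1.17) and SLC37A1 (1.14) were higher. SLC24A4 (-2.14), SLC16A6 (-1.40) and the glycine transporter SLC6A5 (-1.24) were lower. The SLC6A5 level was 4.29 CPM in siSPEN1, 1.82 CPM in siSPEN2 and 0.865 CPM in siScr. Without siSPEN1 replicate 3, 10 members were called.

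**Figure D5:**
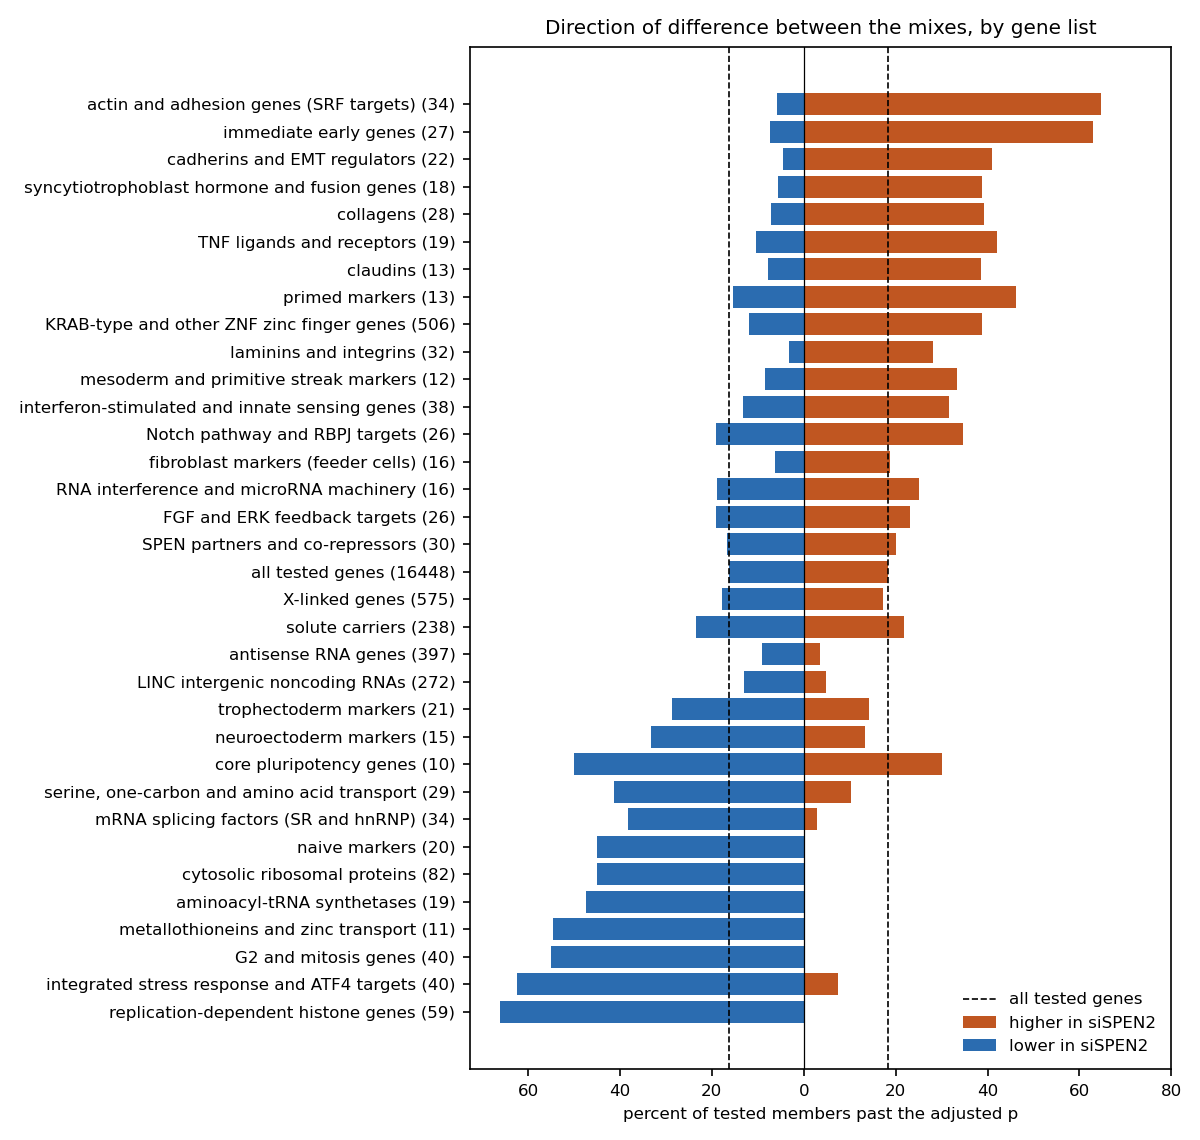
Percent of tested members that were higher (right) or lower (left) in siSPEN2 by the adjusted p, for the gene lists described, with the number tested in brackets. Dashed lines mark all tested genes (18.3% higher, 16.3% lower). SRF targets and immediate early genes have the largest shares higher, and replication-dependent histones and ATF4 targets the largest shares lower. Most of these lists were described because of their calls or of these shares.

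Targets of ERK feedback did not go one way. Of 26 tested, 6 were higher (23.1%) and 5 lower (19.2%), beside 18.3% and 16.3% of all tested genes. The phosphatase DUSP4 was called lower (-1.19, from 2.04 to 0.891 CPM) together with ETV1, and EGR2 higher. These 3 calls were 11.5% of the list, beside 2.50% of all tested genes. DUSP4 had a log2 fold change of -0.95 without siSPEN2 replicate 3, where 1 member was called and 2 were higher by the adjusted p. Other members of the family of ERK targets stood at 0.26 (ETV4), 0.25 (SPRY2, higher) and -0.63 (SPRED1, lower).

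The Notch pathway, in which SPEN acts through RBPJ, gave 9 higher (34.6%) and 5 lower (19.2%) of 26, beside 18.3% and 16.3% of all tested genes, and 0 calls. RBPJ was at 247, 243 and 241 CPM in siSPEN1, 307, 307 and 315 CPM in siSPEN2 and 178 to 192 CPM in siScr (0.35, edgeR adjusted p = 3.3e-06). The Notch inhibitor NUMB was higher (0.44), and the feedback gene NRARP was at 26.4, 23.9 and 27 CPM in siSPEN1 and 16.2, 14.9 and 14.8 CPM in siSPEN2 (-0.76, edgeR adjusted p = 1.4e-07). The ligand DLL4 was lower (-0.75), and the receptors NOTCH2 (0.37) and NOTCH3 (0.38) were higher. HEYL, a target gene, had a log2 fold change of 1.00, from 1.33 to 2.67 CPM, just short of the threshold. With the replicate block, 1 member was called higher, as with library totals alone and where 1 CPM was required in 3 libraries. Without siSPEN1 replicate 1, siSPEN2 replicate 1 or siSPEN2 replicate 3, 1 member was likewise called higher. Without siSPEN2 replicate 2, 1 was called lower. With the block and only the 6 libraries of both mixes, 1 was called in each direction.

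The machinery that siRNAs use was little different between the mixes. Of 16 tested genes, 4 were higher (25%) and 3 lower (18.8%), beside 18.3% and 16.3% of all tested genes, with 0 calls. TNRC6A, a scaffold of silencing complexes, was at 214 ± 7.94 CPM in siSPEN1 and 292 ± 6.81 CPM in siSPEN2, both above siScr at 107 to 124 CPM (log2 fold change 0.45 between the mixes, SE 0.052, edgeR adjusted p = 7.9e-07). TNRC6C (-0.43) and the nuclease DICER1 (-0.42) were lower, AGO1 was higher (0.30), and AGO2, the slicing Argonaute, stood at 313 and 319 CPM.

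X-linked genes as a set were close between the mixes. Of 575 tested, 99 were higher (17.2%) and 103 lower (17.9%), with a median log2 fold change of -0.02. The 9 called higher and 4 called lower were 2.26% of those tested, close to the 2.50% of all tested genes. Autosomal genes had 2910 higher (18.6%) and 2569 lower (16.4%) of 15680 and a median of 0.0. Of these, 247 were called higher and 147 lower (2.51%). The X:A ratio, the median CPM of 472 X-linked genes over that of 13116 autosomal genes with a mean of at least 1 CPM, was 0.873, 0.897 and 0.902 in siSPEN1, 0.862, 0.862 and 0.883 in siSPEN2 and 0.818, 0.84 and 0.839 in siScr. The means of the mixes were 0.891 ± 0.0158 and 0.869 ± 0.0121, a difference of -0.0214 (2-sided exact permutation test, p = 0.2, smallest possible 0.1). With same-numbered libraries taken as pairs, the log2 ratio of siSPEN2 to siSPEN1 was -0.017, -0.057 and -0.031, negative in all 3 pairs. The exact sign-flip permutation test gave p = 0.25, the smallest that 3 pairs allow. With no CPM minimum the difference was 0.0271, in the other direction. XACT, a noncoding RNA of the X chromosome, was at 0.448 and 0.349 CPM (edgeR adjusted p = 0.61).

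XIST was at 518 ± 14.6 CPM in siSPEN1, 569.7 ± 20.5 CPM in siSPEN2 and 630.1 ± 116 CPM in siScr. The difference between the mixes did not pass the test (log2 fold change 0.14, SE 0.085, edgeR adjusted p = 0.23). Their libraries did not overlap (507 to 534 and 548 to 589 CPM), as at 43.6% of all tested genes. Against siScr the log2 fold change was -0.28 for siSPEN1 (edgeR adjusted p = 0.0097) and -0.15 for siSPEN2 (edgeR adjusted p = 0.18).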

How the data were processed

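Per the labels, RNA was extracted with the RNeasy kit and made into stranded, ribosomal RNA-depleted total RNA libraries. The authors deposited one table per library of raw counts of reads per gene, with no normalization. Per the submitters' processing notes and the study's methods, reads were trimmed with Trim Galore 0.6.5, mapped with Bowtie2 to hg38 and to the mouse genome, deduplicated with Picard 2.23.5, filtered on mapping quality, cleared of mouse feeder reads with XenofilteR and counted over exons with HTSeq 0.13.5 in reverse-stranded mode. Reads shared by near-identical copies are lost or split by these steps. The sequences of the siRNAs were not used here.

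Symbols were placed on chromosomes by RefSeq symbol (27198 genes), RefSeq synonym (544) or GENCODE symbol (16), and 549 were not placed. Positions were taken from GENCODE 44 (hg38). The 9 libraries of the siRNA experiment were fitted together with edgeR 4.0.16 in R 4.3.3 (quasi-likelihood F-test, TMM factors, filterByExpr with a minimum count of 10 and a minimum total of 15), with siSPEN2 minus siSPEN1 as the contrast and Benjamini-Hochberg adjustment over the 16448 tested genes. The common biological coefficient of variation was 0.0554. Calls needed an adjusted p below 0.05 together with an absolute log2 fold change above 1. For the SE, the fitted log2 fold change was divided by the root of its F statistic. The fit was also run on simulated counts, in which all genes had the same spread and only genes with higher counts were changed. That run does not cover the calls at scarce genes. Gene lists carry no test of their own: shares of members past the adjusted p are read against those of all tested genes. The lists on SPEN partners, Notch, RNA interference, interferon and on core, naive, primed, trophectoderm, syncytiotrophoblast and fibroblast markers were described whatever they showed. Any other list was described only if several members were called, or if many passed and mostly in one direction. Its contrast with all tested genes thus follows in part from this choice. Lists that met neither condition were left out, apart from summed marker levels. The X:A ratio and SPEN CPM were also compared by exact permutation, unpaired and within replicate numbers, with scipy 1.17.1.

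The genes named are SPEN, the 12 called genes with the largest positive and the 12 with the largest negative log2 fold change (mean CPM of at least 1 over the 6 libraries, no overlap between the mixes), up to 6 called members of each described list or else the 3 with the smallest p, and 11 fixed markers. Members named beyond these are given to show the range of a list. The comparison, the lists and the members were chosen with earlier results of these data known.

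Libraries of one group differed by more than sampling noise (chi-square per gene of 4.25 to 10.51), so each was counted as a replicate. Labels give the groups the same replicate numbers. The deviations of same-numbered libraries from their group means correlated between siSPEN1 and siSPEN2 at 0.195, 0.113 and 0.107 over 13682 genes. Each siSPEN1 library matched the siSPEN2 library of its own number best. These correlations are weak, and those of siScr with both mixes were negative, so whether the numbers mark pairs is uncertain. The main fit used no replicate block, which was run as an alternative. Alternatives were DESeq2 1.42.0, RLE factors, library totals, other filters on low counts, fewer libraries, a replicate block, leaving out each library, and offsets for transcript length and GC content (96.7% of tested genes had a length). A few members of the lists are not reported here.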

Additional observations from a re-analysis of the deposited data

How the results depend on the processing

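The number of genes called between the mixes was 412. Under other tools, scalings, filters and samples it was 385 with DESeq2, 413 with RLE factors, 410 with library totals alone, 485 with no filter on low counts, 390 with only the 6 libraries of both mixes and 397 with offsets for length and GC content, and it was 253 (161 higher, 92 lower) where genes had to reach 1 CPM in 3 libraries, so that fewer were tested, and 5703 with the adjusted p alone. Leaving out single libraries gave 359 to 460. With the replicate block 409 genes were called, of which 391 were among the 412, and 421 with the block and only the 6 libraries. The block ended the calls of EGR2, NCAM1 and TNFRSF1B among the named genes, and changed no other call of a named gene in the fit of 9 libraries. SPEN differed by -0.07 on the log2 scale, with -0.12 to -0.02 when single libraries were left out, and by -0.17 with offsets for length and GC content (adjusted p = 0.049), where the cause was not tested. The X:A difference of -0.0214 ran from -0.0304 to -0.0156 when single libraries were left out, was -0.0177 at a mean CPM of at least 5, -0.035 on the log2 scale within replicate numbers (replicate block), and 0.0271 with no CPM minimum, a reversal whose cause was not tested. For named genes, 1856 of the alternative values kept the direction and stayed called or not called, 92 lost the call, 4 gained one and 0 changed direction. Many named genes were not called in the main fit. A loss of the adjusted p alone at such genes counted as kept, so these counts do not measure how stable their adjusted p was. The 92 came from 32 genes, and 52 of them were at genes with a mean below 1 CPM over the 6 libraries, where few reads were counted. The cause of the lost calls was not tested. The offsets and the block with 6 libraries were chosen after seeing the data.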
